A study of Mus musculus with 4 samples.

Results

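The hypoxia response and glycolysis genes described here are 10 listed genes: Hif1a, Vegfa, Adm, Ndrg1, Angptl4, Pfkfb3, Hk2, Aldoa, Pgk1 and Ldha. They were chosen by name, as probes whose gene symbol in the platform annotation, or its current synonym, is on that list. The list itself was drawn up with earlier results of these data known. Of 16637 genes named on the array, 9 of the 10 were found, on 12 probes; Aldoa, which encodes an aldolase of glycolysis, matched no probe and has no value. Single probes represent 7 of the 9, Ndrg1 has 2 probes and Angptl4 has 3, and the probes of these last genes are given one by one because they differ.

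RNA came from the colon of female mice and was hybridised, after amplification and Cy3 labelling, to 1-colour arrays. The study used 24 mice in 4 groups of 6, killed on day 7. Mock mice (strain labelled BALB/c) received 0.1 ml of 50% ethanol, the vehicle that all groups shared. The other groups, with the strain spelled BALC/c, received 250 mg/kg trinitrobenzene sulfonic acid (TNBS), a hapten that provokes colitis in rodents, in that vehicle: alone, mixed with ginger extract, or mixed with zingerone, a phenolic ketone of ginger. The amounts of ginger extract and zingerone behind each array are not stated, nor whether its RNA was pooled. A single array stands for each group: differences carry no error and could not be tested, and precision is limited by this number of arrays. Below, a gene is called higher or lower when 2 arrays differed at least 2-fold in intensity, and measured when it reached the median of all named probes (between 269 and 272.2, depending on the array) on at least 1 array; 10056 genes were measured, all 9 members with a probe among them.

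Cells sense a lack of oxygen through hypoxia-inducible factors (HIFs). The oxygen-regulated subunit, encoded by Hif1a, is hydroxylated by prolyl hydroxylases and destroyed through the VHL ubiquitin ligase when oxygen is plentiful; in hypoxia it escapes, pairs with the stable partner ARNT and switches on genes for blood vessel growth, oxygen-independent energy supply and matrix. The surface of the healthy colon lies next to an oxygen-poor lumen, and inflamed mucosa is a well-known site of hypoxia. HIF is regulated mostly as a protein, which these arrays do not measure, and inflammatory signals also induce Hif1a and several of its targets.

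The DNA core that HIF binds, the hypoxia response element, reads ACGTG or GCGTG, and both were searched on both strands of the promoter windows that RefSeq gives for assembly GRCm38.p6, from 250 bases before to 50 after each annotated start. Windows were present for 8 members and missing for Ndrg1 and Angptl4. The following 4 windows are shown because they cover both kinds of member met below: Pfkfb3 and Adm were at least 2-fold higher on the TNBS array than on the mock array, and Pgk1 and Ldha differed less. Capitals mark a core on either strand (CACGT and CACGC are the cores read from the other strand), and CACGTG holds a core on both strands and is also the E-box bound by other factors such as MYC and CLOCK. For Pfkfb3 and Ldha, which have several annotated starts, the window with the most cores is printed.
Pfkfb3, chr2:11502041-11502340, minus strand: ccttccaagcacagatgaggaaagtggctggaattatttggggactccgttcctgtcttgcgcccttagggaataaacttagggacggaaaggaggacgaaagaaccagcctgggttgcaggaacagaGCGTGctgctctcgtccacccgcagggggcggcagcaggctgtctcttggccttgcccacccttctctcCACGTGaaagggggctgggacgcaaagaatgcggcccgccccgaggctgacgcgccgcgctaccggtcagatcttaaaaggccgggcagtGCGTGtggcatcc
Adm, chr7:110627407-110627706, plus strand: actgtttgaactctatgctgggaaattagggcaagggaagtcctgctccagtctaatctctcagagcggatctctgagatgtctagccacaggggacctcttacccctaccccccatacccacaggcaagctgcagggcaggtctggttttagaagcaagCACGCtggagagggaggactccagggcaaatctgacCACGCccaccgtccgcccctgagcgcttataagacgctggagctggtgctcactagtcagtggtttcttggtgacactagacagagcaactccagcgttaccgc
Pgk1, chrX:106186850-106187149, plus strand: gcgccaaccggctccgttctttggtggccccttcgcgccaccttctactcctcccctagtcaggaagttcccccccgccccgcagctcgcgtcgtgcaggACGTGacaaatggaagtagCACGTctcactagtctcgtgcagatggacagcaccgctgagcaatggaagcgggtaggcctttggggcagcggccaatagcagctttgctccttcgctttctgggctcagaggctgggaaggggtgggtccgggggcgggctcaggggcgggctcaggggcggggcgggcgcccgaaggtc
Ldha, chr7:46845554-46845853, plus strand: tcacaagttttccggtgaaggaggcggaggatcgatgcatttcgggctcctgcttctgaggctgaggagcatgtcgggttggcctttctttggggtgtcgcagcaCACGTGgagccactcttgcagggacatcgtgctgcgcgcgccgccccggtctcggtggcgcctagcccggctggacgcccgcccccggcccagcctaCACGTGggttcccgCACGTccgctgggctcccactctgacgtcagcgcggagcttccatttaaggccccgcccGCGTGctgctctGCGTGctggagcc
With overlapping matches counted once, the Ldha window held 5 core sites, the Pfkfb3 window 3, and the Adm and Pgk1 windows 2 each. Of the 13 windows of members 11 held at least 1 core, against 43.8% of all 32851 windows. By gene, taking the best window, this was 8 of 8 members against 46.7% of 27025 genes. That count favours genes with several windows. The members had more windows per gene (13 for 8) than all genes had (32851 for 27025). The cores contain the dinucleotide CG, and the members' windows were also richer in G and C, with a median of 65.7% against 52.7% over all windows. The 2 Vegfa windows held 0 and 2 core sites, and the Aldoa windows 0, 1 and 1, the last pair being the same site in overlapping windows. A match describes letters in the window only.

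**Figure D1:**
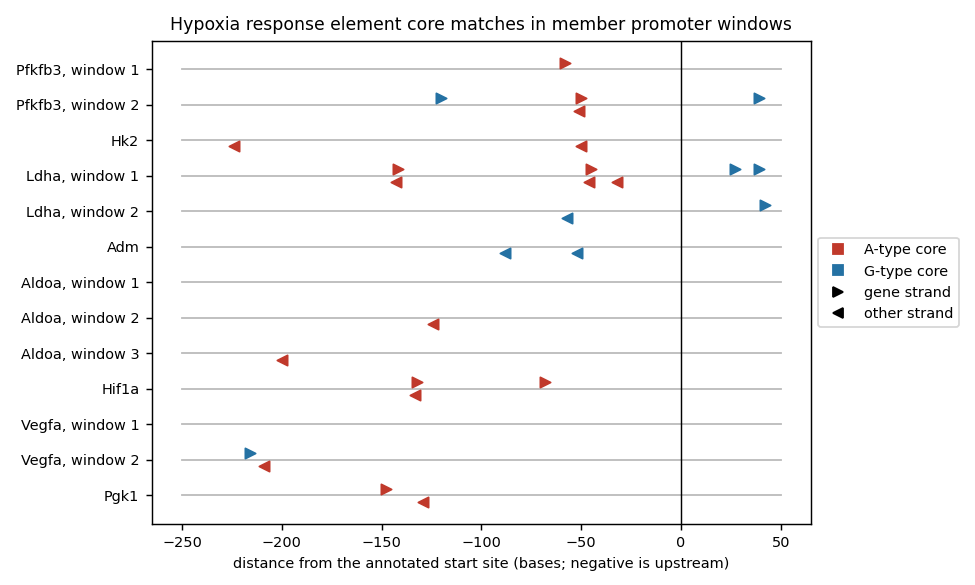
Positions of hypoxia response element cores in the 13 RefSeq promoter windows of 8 members; the horizontal axis is the distance in bases from the annotated start site, red marks ACGTG and blue GCGTG, and the arrow gives the strand. Cores are present in 11 windows, with 5 sites in the first Ldha window and none in the first windows of Aldoa and Vegfa.

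On the TNBS array all 9 members with a probe read above the mock array, as did 4634 of 10056 measured genes. Of the 9, 5 were at least 2-fold higher: Pfkfb3, Vegfa, Hif1a, Adm and Angptl4. Adm (2.05-fold) and Angptl4 (2.03-fold) lay just past that line, and Angptl4 only through 1 of its 3 probes. Over all 10056 measured genes, 5.08% were at least 2-fold higher and 4.52% lower. The members' median log2 difference was 1.02, beside -0.04 over all measured genes, and their lowest was 0.42, in Ldha. That median is the value of Angptl4 itself, averaged over its 3 unlike probes. Pfkfb3 and Vegfa differed most, and the enzymes Hk2 and Ldha least. Without replicates, neither the differences nor their order has an error. Because the list was chosen with earlier results of these data known, the contrast with all measured genes is not independent evidence.

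The regulator itself, Hif1a, read 2351 in mock colon, 6699 after TNBS, 3568 with ginger and 5094 with zingerone (Cy3 intensity, as in all such values below). The mock array was lowest and the TNBS array highest, 2.85-fold above mock. With ginger the reading was 1.88-fold below TNBS and with zingerone 1.32-fold below, so that the zingerone array alone of the pair remained at least 2-fold above mock (2.17-fold). Among 14 listed HIF subunits and control proteins, 11 were measured and none was 2-fold apart between TNBS and mock. Over all measured genes 5.08% were higher and 4.52% lower, and a list this short cannot be set apart from those shares. Arnt, the partner of HIF, gave 283 on mock and 393.6 on TNBS as the mean of 2 probes (log2 differences 0.12 and 0.83). Hif3a, a further alpha subunit, read 642.8, 708, 664.5 and 671.5 in the order mock, TNBS, ginger and zingerone. Epas1, which encodes the HIF-2 alpha subunit, reached the median of named probes on no array. The 2 genes of this list with the largest differences belong to the ubiquitin ligase: Vhl was 1.53-fold above mock on TNBS (561.8 and 857.6), and Eloc, a VHL partner, was 1.63-fold below (351.5 and 216). That TNBS reading of Eloc lay below the median of named probes, and with zingerone Eloc read 401.8, 1.86-fold above TNBS. Egln3, a prolyl hydroxylase that HIF induces, was named after its values were seen and differed little, at 1674 in mock colon, 2054 after TNBS, 2413 with ginger and 2022 with zingerone. In this list the medians against TNBS were -0.07 for ginger and -0.08 for zingerone.

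Vegfa, the vascular endothelial growth factor that drives vessel sprouting, had an intensity of 479.6 in mock colon, 1843 after TNBS, 886.8 with ginger and 713.8 with zingerone. TNBS stood well above the rest, at 3.84 times mock, and it was the 148th largest of all increases. Both treated arrays were at least 2-fold below TNBS, ginger 2.08-fold and zingerone 2.58-fold. Its relatives showed no such spread: Vegfb differed 1.07-fold between TNBS and mock, Vegfc 1.04-fold and Pgf, placenta growth factor, 1.31-fold. Of the receptors, Flt4 and Nrp1 were measured and differed by 1.05-fold and 1.09-fold, while Flt1 and Kdr stayed below the median of named probes on all arrays. Among 6 measured endothelial markers 1 was higher on TNBS, where 5.08% of measured genes were. Their summed intensity was 2701 in mock colon, 4033 after TNBS, 3117 with ginger and 3031 with zingerone. Its part in the Vegfa readings was not tested.

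Adm encodes adrenomedullin, a vasodilator peptide that also tightens the endothelial barrier. It was dim, at 267.8 in mock colon, 549.5 after TNBS, 585.2 with ginger and 426 with zingerone. Since the mock reading lay just under the median of named probes, Adm counted as measured through its other arrays. The 3 arrays with TNBS lay above mock, by 2.05-fold, 2.19-fold with ginger and 1.59-fold with zingerone, and neither treated array was 2-fold from TNBS. Adrenomedullin signals through Calcrl, which was not measured, joined to a RAMP protein. Ramp2, the RAMP of the main adrenomedullin receptor, read 623.5 in mock colon, 1247 after TNBS, 900.2 with ginger and 682.5 with zingerone, which is 2-fold higher after TNBS. Ramp1, which instead makes a receptor for calcitonin gene-related peptide, ran the other way, at 1630 in mock colon, 360 after TNBS, 821.5 with ginger and 748 with zingerone. This was 4.53-fold lower on TNBS than on mock, and both treated arrays stood 2.28-fold (ginger) and 2.08-fold (zingerone) above TNBS while below mock. Ramp3 differed 1.23-fold between TNBS and mock. Of the peptide genes, Calcb differed 1.07-fold; the Calca probes were unlike, 3.02-fold (177.2 and 534.5) and 1.01-fold above mock on TNBS, with a mean of 1.75-fold.

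Ndrg1, a stress-response gene named N-myc downstream regulated, widely used as a hypoxia marker, gave unlike readings on its 2 probes. The first probe read 1594 in mock colon, 5009 after TNBS, 5814 with ginger and 4135 with zingerone. On this probe all 3 TNBS-treated arrays were at least 2-fold above mock, TNBS by 3.14-fold. The second probe read 1430 in mock colon, 1544 after TNBS, 2824 with ginger and 1856 with zingerone, so TNBS differed 1.08-fold from mock and no array was 2-fold from it. Both probes were highest on the ginger array, 1.41-fold and 1.52-fold above zingerone. The mean of both probes was 1.84-fold higher on TNBS than on mock and 2.68-fold higher on ginger than on mock. Its relatives Ndrg2 and Ndrg3 were below mock on TNBS (1.12-fold and 1.56-fold), and Ndrg4 was 1.97-fold above (196.8 and 388).

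Angptl4, a secreted inhibitor of lipoprotein lipase that fasting signals and hypoxia both induce, rested on 1 of its 3 probes. The third probe read 375 in mock colon, 2566 after TNBS, 1238 with ginger and 1078 with zingerone. TNBS was 6.84-fold above mock on this probe, and the treated arrays were 2.07-fold (ginger) and 2.38-fold (zingerone) below TNBS. The first probe read 351.5 on both mock and TNBS, and the second 281.2 and 346.2, with all 8 readings of the pair between 256.8 and 351.5. Averaged over the 3 probes the difference from mock was 2.03-fold, and without the third probe it was 0.15 on the log2 scale, which leaves 4 members at least 2-fold higher on TNBS. Of the lipases that angiopoietin-like proteins restrain, Lpl differed 1.35-fold between TNBS and mock. Endothelial lipase, Lipg, was at 317.9 in mock colon, 1107 after TNBS, 307.5 with ginger and 368 with zingerone, so that TNBS alone was high, 3.48-fold above mock. Angptl2 (1.09-fold) and Gpihbp1, the capillary anchor of lipoprotein lipase (357.9 and 357.7), did not differ by 2-fold. Adipocytes also make Angptl4: of 7 measured adipocyte markers 4 were higher on TNBS, where 5.08% of measured genes were. Their summed intensity was 10254 in mock colon, 64956 after TNBS, 16487 with ginger and 29237 with zingerone (6095, 19051, 6519 and 9381 without Fabp4). Of the 4, Lep was below the median of named probes on mock (143.5). Adipoq differed 1.33-fold between TNBS and mock, and Plin1, a defining marker, was not measured. The part of adipocytes in the Angptl4 reading was not tested.

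**Figure D2:**
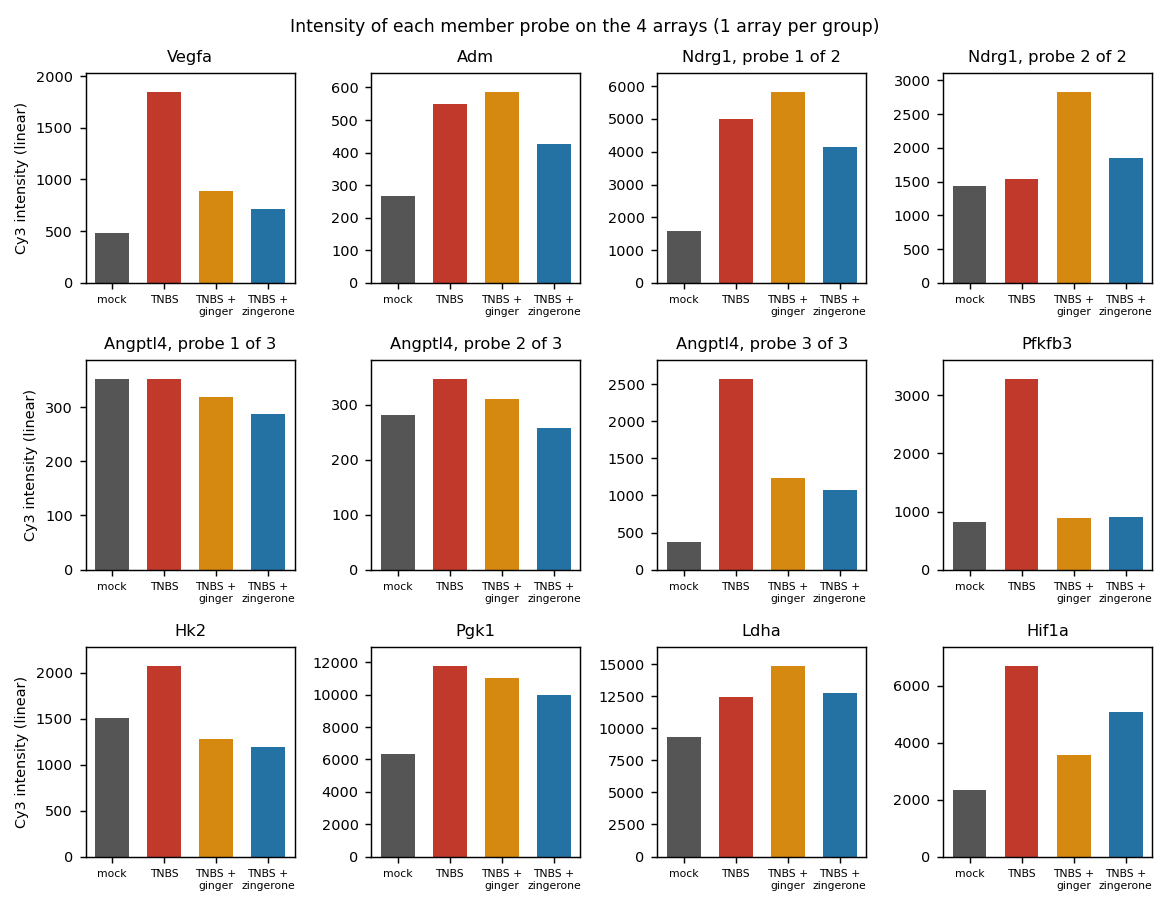
Cy3 intensity (linear axis from 0) of the 12 member probes, 1 bar per array and 1 array per group, so no error bars can be drawn. Pfkfb3 lies near mock on both treated arrays, Vegfa lies between mock and TNBS there, Pgk1 reads alike on the 3 arrays with TNBS, and 2 of the 3 Angptl4 probes are nearly level.

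Glycolysis splits glucose into pyruvate and, through lactate dehydrogenase, lactate. Pfkfb3 does not catalyse a step of the path itself but makes the allosteric activator of phosphofructokinase, and is the isoform best known for induction by hypoxia and inflammatory signals. Its intensity was 820.5 in mock colon, 3278 after TNBS, 883.4 with ginger and 914.2 with zingerone. The TNBS array was the only high one, above mock by 1.998 on the log2 scale, 3.71-fold above ginger and 3.59-fold above zingerone. The treated arrays stood 1.08-fold and 1.11-fold above mock. Its measured relative Pfkfb4 differed 1.24-fold between TNBS and mock, from probes with log2 differences of -0.11 and 0.72, and Pfkfb1 and Pfkfb2 were not measured.

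Hk2 encodes the inducible hexokinase that traps glucose in the cell. It read 1505 in mock colon, 2073 after TNBS, 1279.5 with ginger and 1192 with zingerone. TNBS was highest but within 2-fold of mock (1.38-fold), and Hk2 was the one member that read below mock on both treated arrays, 1.18-fold with ginger and 1.26-fold with zingerone. Hk1, the constitutive hexokinase, differed 1.15-fold between TNBS and mock.

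Pgk1, phosphoglycerate kinase, catalyses the first step of the path that yields ATP. It had an intensity of 6366 in mock colon, 11772 after TNBS, 11016 with ginger and 9969 with zingerone. The 3 arrays with TNBS lay together, 1.57-fold to 1.85-fold above mock. The testis form Pgk2 differed 1.09-fold between TNBS and mock. Ldha, the lactate dehydrogenase subunit that favours lactate, was likewise lowest on mock but highest with ginger, at 9322 in mock colon, 12432 after TNBS, 14844 with ginger and 12775 with zingerone, from 1.33-fold (TNBS) to 1.59-fold (ginger) above mock. Because the arrays share nearly 1 intensity distribution, all readings, dim or bright, act partly as ranks.

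Against TNBS, 2 of the 9 members were at least 2-fold lower on the ginger array and 2 on the zingerone array, Pfkfb3 and Vegfa each time, and none was higher. Over all measured genes 2.48% were lower and 1.35% higher with ginger, and 2.96% lower and 4.57% higher with zingerone. The members' median log2 differences were -0.45 with ginger and -0.40 with zingerone, beside 0.02 and -0.02 over all measured genes. The ginger median is the value of Angptl4, a mean of unlike probes (-0.14, -0.16 and -1.05), and so depends on how its probes are combined. Both comparisons use the same TNBS array, so their likeness is not independent evidence. That array also enters the comparison with mock, so a gene read high there and lower here is not seen independently in each. Ndrg1 (mean of probes), Adm and Ldha read above TNBS on the ginger array, by 0.54, 0.09 and 0.26 on the log2 scale, and Ldha alone did so on the zingerone array (0.04), although the second Ndrg1 probe also did (0.27).

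**Figure D3:**
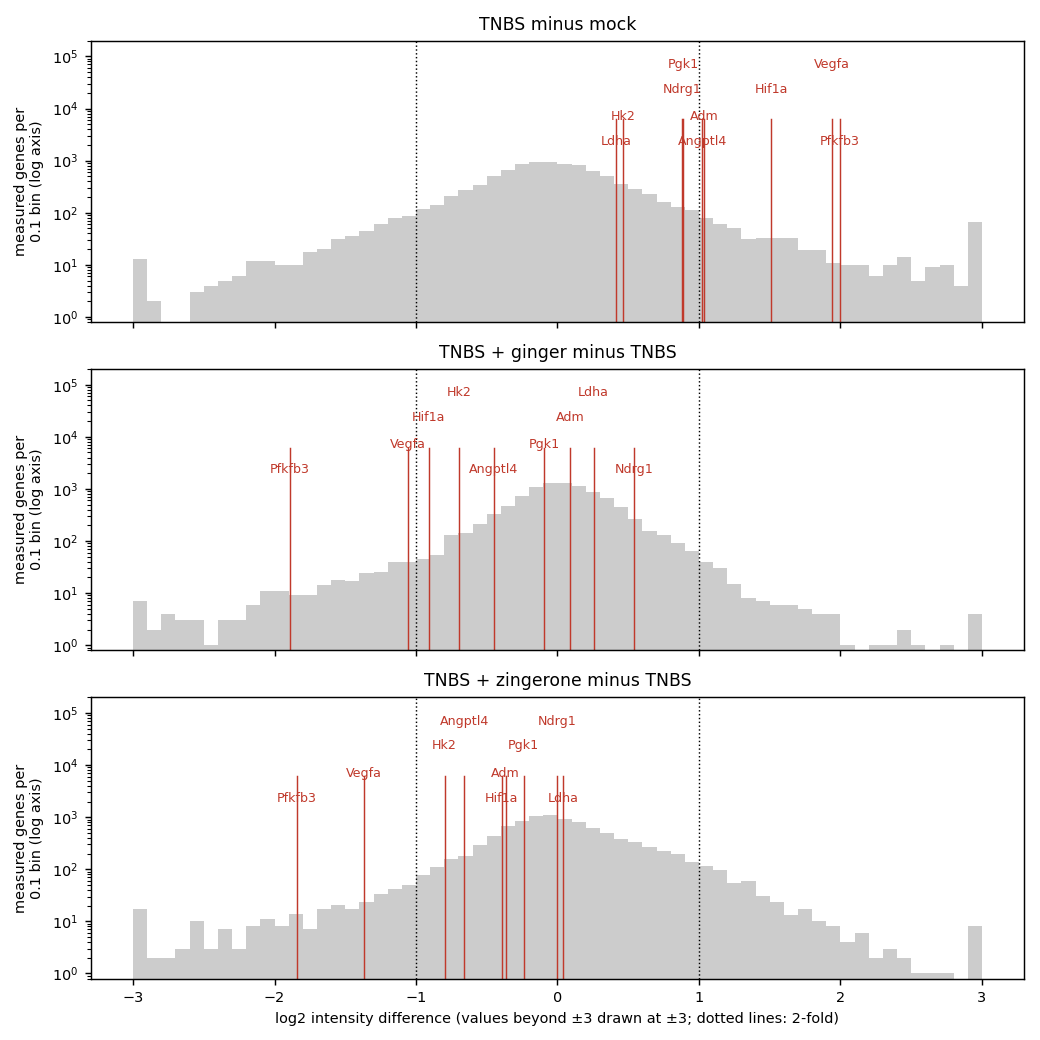
Log2 intensity differences of the 9 members (red lines) within the histogram of all 10056 measured genes (grey, counts on a log axis) for TNBS minus mock, TNBS with ginger minus TNBS, and TNBS with zingerone minus TNBS. All members lie right of 0 in the top panel, and Pfkfb3 and Vegfa are the members beyond the 2-fold line in the lower panels.

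Compared with mock, 2 members were at least 2-fold higher on the ginger array, Adm and Ndrg1 (mean of probes; 1.84-fold on TNBS), where 1.62% of measured genes were higher, and 1 was on the zingerone array, Hif1a, where 1.53% were. All members but Hk2 read above mock on both arrays, as did 5120 (ginger) and 5156 (zingerone) of 10056 measured genes. The members' median log2 differences were 0.67 for ginger and 0.57 for zingerone, beside 0.01 for all measured genes in each case. Between zingerone and ginger no member was 2-fold apart, as was true of all but 1.1% of measured genes. The widest gaps were in Ndrg1, 1.46-fold lower on the zingerone array, and Hif1a, 1.43-fold higher there. The amounts given are not stated, so whether the doses match is unknown, and the interval of these gaps is unknown.

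The wider hypoxia response was read from 28 other genes known to respond to low oxygen, of which 20 were measured and 4 were at least 2-fold higher on TNBS than on mock, with none lower (median log2 difference 0.37), beside 5.08% higher and 4.52% lower over all measured genes. Hmox1, heme oxygenase, was at 439 in mock colon, 1957 after TNBS, 908.5 with ginger and 687.9 with zingerone, and so 2.15-fold and 2.84-fold lower on the treated arrays than on TNBS; it is also a classic target of NRF2. Ddit4, an inhibitor of the growth kinase mTOR, read 1154, 4354, 2855 and 2635 in the same order, with both treated arrays still more than 2-fold above mock. P4ha1, a collagen prolyl hydroxylase subunit, gave 332.5, 892.2, 529.5 and 418, and the zingerone array was 2.13-fold below TNBS. Plod1, a collagen lysyl hydroxylase, gave 524.8, 1174, 796.5 and 727.6. The last pair modify collagen, and P4ha2, named after its values were seen, lay just under 2-fold (1.98-fold). Other classic targets stayed within 2-fold of mock on TNBS: Car9, a membrane carbonic anhydrase, differed 1.34-fold between TNBS and mock and read highest on ginger (1628), Bnip3 differed 1.53-fold, and Ankrd37, Tfrc and Pdk1 read below mock on TNBS, by 1.86-fold, 1.76-fold and 1.47-fold; these 5 were named after their values were seen.

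**Figure D4:**
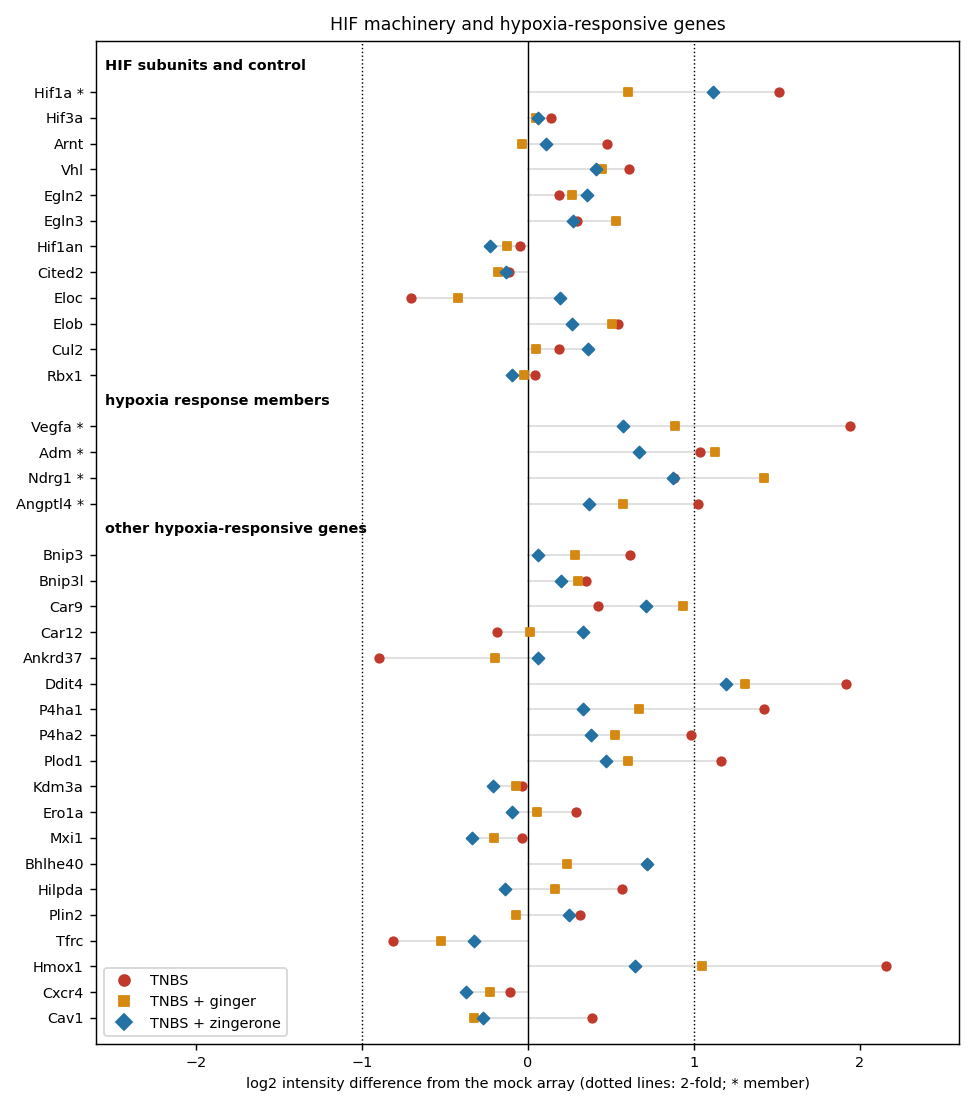
Log2 intensity difference from the mock array for Hif1a and 11 measured HIF control genes, 4 hypoxia response members and 19 other measured hypoxia-responsive genes (Pdk1 is drawn with pyruvate metabolism); circles are TNBS, squares TNBS with ginger, diamonds TNBS with zingerone, and dotted lines mark 2-fold. Hif1a, Vegfa, Ddit4, P4ha1, Plod1 and Hmox1 lie right of the 2-fold line on TNBS, with Adm and Angptl4 just past it. The 11 control genes stay between the lines. On TNBS 5.08% of all measured genes were at least 2-fold higher than mock and 4.52% lower. The TNBS circles of Ndrg1 and Bhlhe40 lie under the zingerone diamonds.

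Along the glycolytic path beyond the members, 15 of 30 listed genes were measured, and 2 were at least 2-fold higher on TNBS, with none lower (median log2 difference 0.30), where 5.08% of measured genes were higher. Both are carriers at the ends of the path. Slc2a3 (GLUT3), a high-affinity glucose transporter abundant in neurons and leukocytes, read 203.5 in mock colon, 988 after TNBS, 420.8 with ginger and 322.2 with zingerone, and so 4.86-fold higher on TNBS; its mock reading was below the median of named probes. Slc16a3, the lactate exporter MCT4, read 419.5, 1315, 994 and 820.5 in that order, 3.13-fold higher on TNBS. Slc2a1 (GLUT1), named after its values were seen, was 1.92-fold higher on TNBS. The measured enzymes between the carriers, Pfkfb3 aside, were within 2-fold of mock on TNBS when probes were averaged. Pgam1 and Pkm were 1.47-fold and 1.23-fold above, Gpi1 (mean of 3 probes) differed by 0.01 on the log2 scale, and Pfkl was 1.31-fold below. Tpi1 and Eno3 each have a bright and a dim probe: the bright Tpi1 probe was 2.04-fold higher (10118 and 20660) and the bright Eno3 probe 2.96-fold lower (3472 and 1173), while the dim ones differed 1.01-fold and 1.22-fold. These 6 genes were named after their values were seen. The probe of Gapdh, an enzyme every cell uses, was not measured, at 159.8 or less on all arrays, so a dim probe here need not mean a silent gene.

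Genes that make glucose from pyruvate, admit pyruvate to mitochondria or control its use there mostly read the other way. Of 15 listed, 9 were measured. On TNBS 8 of the 9 read below mock, as did 5405 of 10056 measured genes. Pdk3, a kinase of pyruvate dehydrogenase named after its values were seen, read above mock (0.25 on the log2 scale). At least 2-fold lower on TNBS than on mock were 3 of the 9, and none was higher (median -0.81), beside 4.52% lower over all measured genes. Pdha1, the catalytic subunit of pyruvate dehydrogenase, was at 614.2 in mock colon, 248 after TNBS, 343.6 with ginger and 680 with zingerone. Mpc2, a subunit of the mitochondrial pyruvate carrier, read 2532, 1143, 1642 and 2303 as the mean of 2 probes, which were 2.76-fold and 1.78-fold lower on TNBS. Pck1, which commits carbon to gluconeogenesis, read 1218, 531.2, 910.3 and 1299, with probes 2.90-fold and 1.82-fold lower. Against TNBS none of the 9 was 2-fold higher with ginger, where 1.35% of measured genes were, and 5 were with zingerone, where 4.57% were: these 3, Fbp2 (1798 on TNBS, 3298 on ginger, 3981 on zingerone) and Pcx, pyruvate carboxylase (304, 500 and 671.5). On the zingerone array the median log2 difference of the list from mock was 0.09, and on the ginger array it was -0.37. The difference between the treated arrays was not tested, and its median was 0.27. Here too the single TNBS array enters the comparisons with mock and with both treated arrays, so these are not independent.

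**Figure D5:**
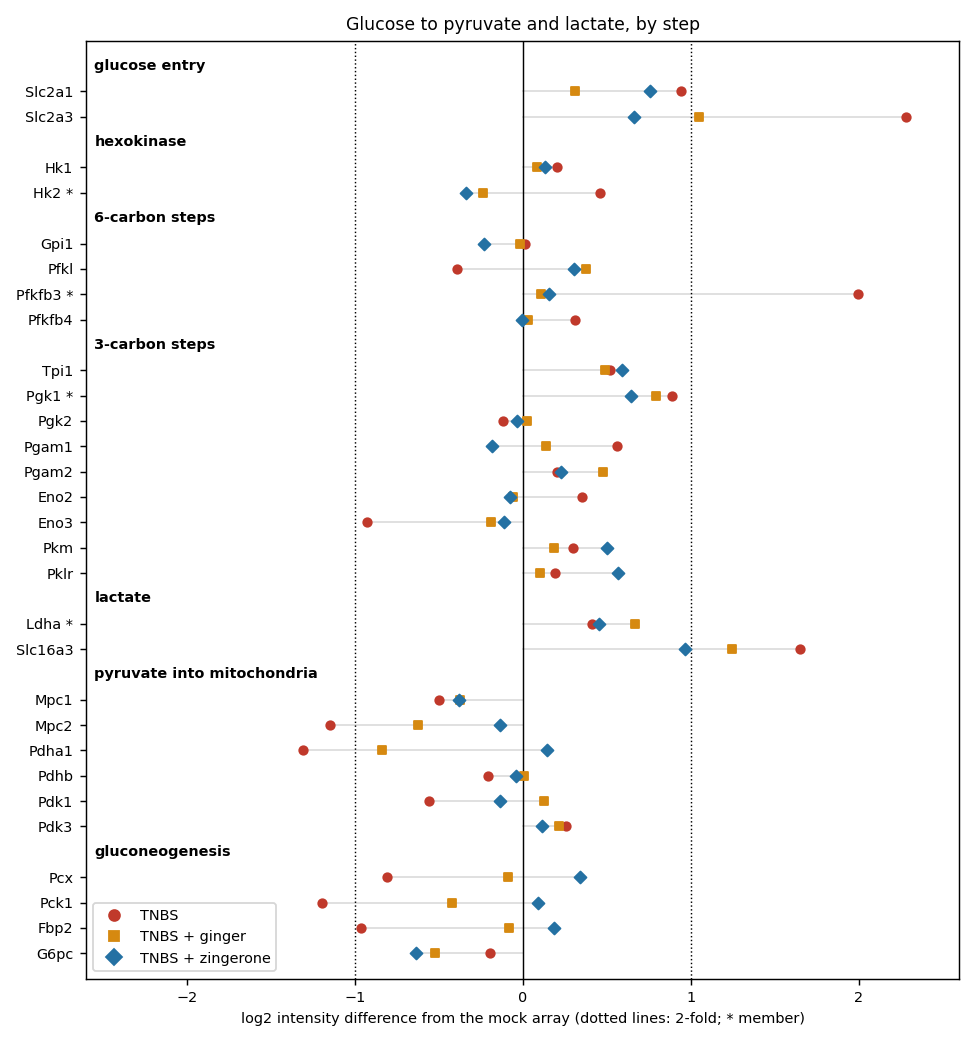
Log2 intensity difference from the mock array for measured genes of glucose uptake, glycolysis, lactate, pyruvate entry and gluconeogenesis, ordered by step; symbols are as for the hypoxia genes, and an asterisk marks a member. Slc2a3, Pfkfb3 and Slc16a3 lie beyond the right 2-fold line on TNBS, and Mpc2, Pdha1 and Pck1 beyond the left one.

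The arrays also differed in markers of the cells present, and in whole tissue fewer cells of a type cannot be told apart from less RNA per cell. Beside the counts below, 5.08% of all measured genes were at least 2-fold higher on TNBS than on mock and 4.52% lower. All 15 colon epithelium markers were measured. On TNBS 4 were lower and 13 read below mock, as did 5405 of 10056 measured genes. The summed intensity of the 15 was 242269 in mock colon, 170160 after TNBS, 226704 with ginger and 277535 with zingerone. Of 13 neutrophil markers 7 were measured and all 7 were higher on TNBS, with summed intensities of 5663 in mock colon, 149636 after TNBS, 96898 with ginger and 75854 with zingerone. On the arrays with TNBS S100a8 and S100a9, both bright there, made up most of these sums, and the other 5 markers summed to 3383, 46953, 8711 and 6144. Of the 7, 4 were at least 2-fold lower than TNBS on each treated array, where 2.48% (ginger) and 2.96% (zingerone) of measured genes were. Their median log2 differences were -1.20 (ginger) and -1.21 (zingerone), beside 0.02 and -0.02 over all measured genes. Ly6g and Elane matched no probe, and Csf3r, Camp, Ngp and Mpo were not measured. On mock, Mmp8, Mmp9 and Cxcr2 read below the median of named probes (161.8, 265.2 and 217.1) and counted as measured through arrays with TNBS. For such dim markers the filter favours those that rise, and so may also favour treated readings below TNBS. Of 12 monocyte and macrophage markers 10 were measured and 2 were higher, Cd14 and Cd68, with sums of 4960, 32421, 7968 and 7810.5. Cd14 carried this rise: the other 9 summed to 3638, 4350, 3747 and 3714, and the median log2 difference of the 10 was 0.16 on TNBS. Myeloid cells rely on glycolysis and express Slc2a3, Pfkfb3, Hk2, Hif1a and Vegfa, while Pck1 is expressed by intestinal epithelium. The part of these shifts in the members' readings was not tested. Fibroblast markers summed to 5019, 5425, 4556 and 5442 (1 of 7 higher), and smooth muscle markers to 21192, 16837, 16814 and 9959 (1 of 8 lower). Of 10 skeletal muscle markers 3 were measured, with 1 higher and a sum between 790 and 1600, and of 6 red blood cell markers 2 were measured, with 1 higher and sums of 1608, 1454, 1118 and 929.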

How the data were processed

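The deposited table gives a linear Cy3 intensity for each probe on each of the 4 arrays. Per the submitters' processing notes limma was used (version and role: not given in the sources used here). After sorting, the arrays agree to within 1.84% at every rank, which is what quantile normalization produces, and no value is under 74.2, so a background seems to remain and folds of dim probes are understated. Symbols (21020 of 29922 probes have 1, none several) were updated through RefSeq synonyms of GRCm38.p6. No pseudocount was added before taking log2, probes of 1 gene averaged, and genes kept if they reached the 50th percentile of named probes on at least 1 array. With 1 array per group no test was run; a call is a 2-fold difference. The steps were tested on simulated data.

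The members and lists (HIF machinery, hypoxia targets, glycolysis, pyruvate use, the members' families and cell type markers) were chosen with earlier results of these data known. Named genes were the members, their measured relatives, and from each pathway list the genes past 2-fold and the 2 with the largest difference; exceptions are marked. Alternatives were quantile normalization, equal medians, subtraction of the 5th percentile (values under 50 raised to 50), raising values to the 25th percentile, keeping dim genes, a stricter filter (75th percentile), the brightest probe, and leaving out 60 probes that differ on 1 array by 4-fold or more from the other arrays, themselves within 1.4-fold. Promoter windows came from RefSeq. Python 3.11.15, numpy 2.4.6, pandas 2.3.3 and matplotlib 3.10.9 were used.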

Additional observations from a re-analysis of the deposited data

How the results depend on the processing

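Pfkfb3, Vegfa, Hif1a, Adm and Angptl4 stayed at least 2-fold higher on TNBS than on mock under each of the 8 alternatives to the processing, and Pfkfb3 and Vegfa stayed at least 2-fold lower than TNBS on both treated arrays. None of these 9 members changed sign where it had been called. The members called against mock on the zingerone array numbered 1, where 1.53% of measured genes were higher. They numbered 2 after subtraction of the 5th percentile (Hif1a and Adm) and 3 with the brightest probe per gene (Hif1a, Angptl4 and Ndrg1). The other hypoxia and glycolysis genes called between TNBS and mock numbered 9 (6 higher and 3 lower), beside 5.08% higher and 4.52% lower over all measured genes. After subtraction they numbered 17 (8 higher and 9 lower of 55). Between ginger and TNBS they numbered 2, where 2.48% of measured genes were lower and 1.35% higher, but 5 after subtraction. Shares over all measured genes were not computed under the alternatives, so the counts found there have no share to be set against. By construction, subtraction widens the folds of dim genes. With the brightest probe Ndrg1 was higher on TNBS than on mock by 1.65 on the log2 scale, and Angptl4 was lower than TNBS on both treated arrays. Leaving out the brightest Angptl4 probe, an alternative chosen after seeing the data, ended its call on TNBS. No paired analysis was possible because each group has 1 array. Dim readings such as Adm, Slc2a3 and the first 2 Angptl4 probes are limited by signal over background.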
